A study of Mus musculus with 11 samples.

Results

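The oligodendrocyte lineage transcripts were examined in mouse microglia on 11 single-colour Agilent arrays. They were 9 genes of the 19555 that passed the filter on dim probes. Cspg4, which encodes the surface proteoglycan NG2, was selected on its measured values in these arrays, where its signal rose in cytokine-treated cultures, so its levels are given as descriptions without a test. Pdgfra, Olig1, Olig2, Gpr17, Mbp, Mobp, Cnp and Cldn11 were chosen as named genes of the same lineage, and the question was whether they moved with Cspg4. Each of the 9 was matched to at least 1 probe by accession.

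All cells came from C57BL/6N mice. Microglia of adult females, sorted by flow cytometry on intermediate CD45 and high CX3CR1, gave 2 arrays (A_FACS). Newborn microglia of both sexes sorted in the same way gave 3 arrays (NB_FACS). Newborn microglia shaken off mixed flask cultures, which were fed with L-929 conditioned medium and were seeded from more than one brain, gave 3 arrays without added cytokines (NB_Control). The same kind of cell exposed to human TGF-β1, human IL-34 and CX3CL1, at 100 ng/mL of each, gave the last 3 arrays (NB_Stim). The flasks keep other glia beneath the microglia, and a sorted adult and a sorted newborn sample differ in sex composition as well as in age. Replicate 3 of each newborn group lay on slide 2 and the other 8 arrays lay on slide 1.

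Oligodendrocyte precursors carry NG2 and the receptor tyrosine kinase PDGFRA, and they respond through PDGFRA to the growth factor PDGF-AA. The transcription factors OLIG1 and OLIG2 specify the lineage. As the cells mature they pass through a stage marked by the receptor GPR17, and then make the proteins of myelin, among them MBP, MOBP, CNP and CLDN11. Microglia are macrophages and do not belong to this lineage. NG2 is also made by pericytes and has been described on some activated microglia, and PDGFRA is made by fibroblasts as well, so neither gene alone names a cell type.

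The labelled cell type was checked first. All 14 tested microglia and macrophage markers were well above background on every array of all 4 groups, and their summed level on the linear scale ran from 287847 to 597713 across arrays. Between 66.8% and 80.5% of probes were well above background, and slide 2 was the brighter one, its 75th percentile of signal lying at 446 to 511 against 174 to 316. Levels below are quantile normalised log2 intensities, on which a difference of 1 is a doubling of signal, and n counts arrays. Nothing in the labels ties each array to its own animal or culture, so p-values measure the spread between arrays. In bulk RNA, fewer cells of a type and less RNA per cell cannot be told apart.

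The first 30 bases of the probes behind the members the results turn on are given 5′ to 3′, because each level rests on 1 short sequence. Both Mobp probes are shown because they differed.

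Cspg4: tttgttgagatgggaccaaagcccttacgc

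Pdgfra: ataggaagggtcttccaatacaagatggct

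Olig1: gaaaggaggacatttccagacttctctccc

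Olig2: cgcgctgcccctgcagagtgtatctatcac

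Mobp, probe MMXS06578: cctcaccatttcttcctcctgttccctctc

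Mobp, probe MMXS12097: tgtgtctgtgccaatccataggactggaag

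None of the member probes shared a run of 20 bases with any other probe on the array, so 0 of them had such a near copy. Mbp was read by 3 probes, Cnp by 3 and Mobp by 2, of which 1 was removed by the filter.

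Because TGF-β1 was among the added cytokines, and its SMAD transducers bind the sequence CAGAC, the 250 bases before the start site were read from RefSeq (GRCm38.p6) for Cspg4 and for Pdgfra and Olig2, whose levels are set beside it. Capitals mark CAGAC or its reverse complement GTCTG.

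Cspg4, chr9:56864854-56865103, plus strand: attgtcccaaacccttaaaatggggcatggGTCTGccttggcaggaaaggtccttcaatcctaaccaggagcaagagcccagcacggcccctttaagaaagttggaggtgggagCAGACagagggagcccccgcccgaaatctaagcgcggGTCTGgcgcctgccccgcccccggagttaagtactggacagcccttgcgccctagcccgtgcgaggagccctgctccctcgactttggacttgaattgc

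Pdgfra, chr5:75152001-75152250, plus strand: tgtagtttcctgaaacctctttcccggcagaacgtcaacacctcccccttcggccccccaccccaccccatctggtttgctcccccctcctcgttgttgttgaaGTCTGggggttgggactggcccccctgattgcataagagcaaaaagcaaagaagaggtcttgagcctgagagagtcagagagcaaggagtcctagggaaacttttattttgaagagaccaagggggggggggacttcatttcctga

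Olig2, chr16:91225300-91225549, plus strand: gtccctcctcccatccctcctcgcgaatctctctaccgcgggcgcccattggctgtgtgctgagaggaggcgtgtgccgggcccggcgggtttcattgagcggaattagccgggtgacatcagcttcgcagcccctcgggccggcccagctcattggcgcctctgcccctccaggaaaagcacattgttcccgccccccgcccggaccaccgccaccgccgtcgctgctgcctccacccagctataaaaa

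The Cspg4 window held 3 matches, the Pdgfra window 1 and the Olig2 window 0. Of 32851 promoter windows of this length 42.2% held at least 1 match on either strand and 11.7% held at least 2. The E-box pattern CANNTG, which reads the same on both strands and is the kind of site bound by OLIG factors, had 0 matches in the Cspg4 window, 1 in the Pdgfra window and 0 in the Olig2 window, against 66.2% of all windows with at least 1. None of the sites was tested for binding. RefSeq windows were found for 6 of the 9 members, and Olig1 was among those not found.

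Cspg4 rose in 2 steps across the newborn groups. Its level was 7.94, 7.86 and 7.76 on the 3 NB_FACS arrays, 9.67, 9.59 and 9.34 in NB_Control, and 13.48, 13.42 and 12.41 in NB_Stim. The 3 groups did not overlap, and the lowest cytokine-treated array lay far above every other array. The mean was 7.85 ± 0.09 (SD, n = 3) in NB_FACS, 9.54 ± 0.17 (SD, n = 3) in NB_Control and 13.10 ± 0.60 (SD, n = 3) in NB_Stim. As a description of the contrast that chose the gene, NB_Stim exceeded NB_Control by 3.57 on the log2 scale, an 11.9-fold difference of signal. The difference was 3.82 within slide 1 and 3.07 within slide 2. The adult arrays gave 7.01 and 9.04, and this wide pair enclosed the sorted newborn levels.

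**Figure D1:**
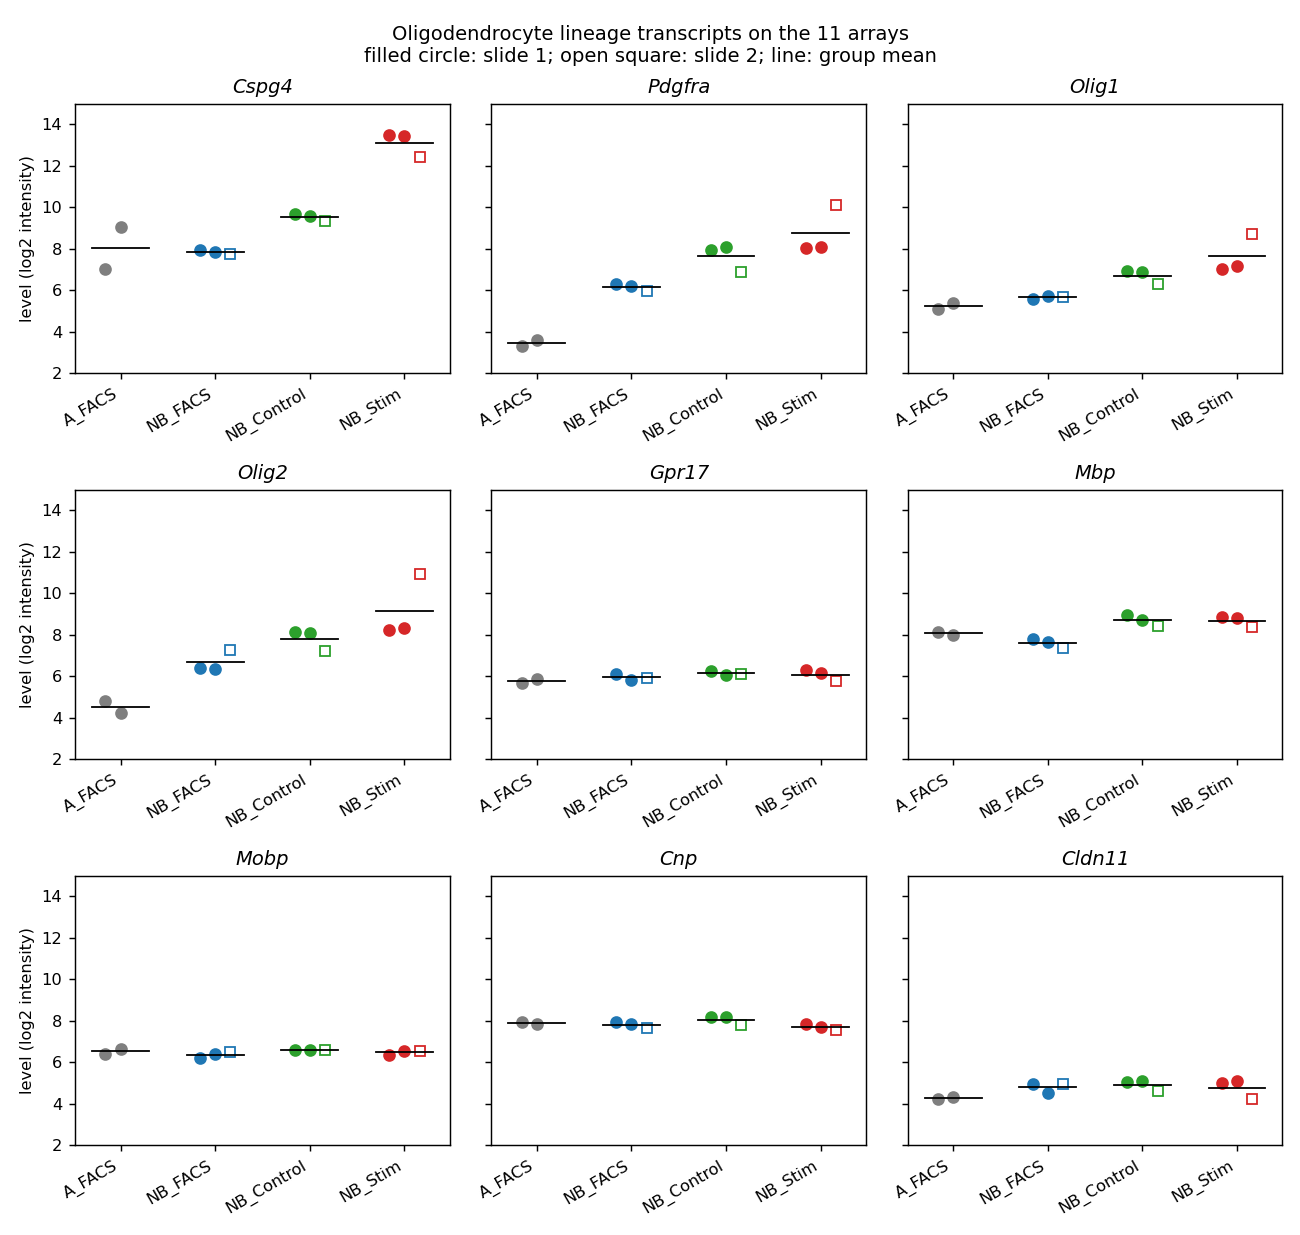
Level (log2 intensity, vertical axis) of the 9 lineage transcripts on each array of A_FACS, NB_FACS, NB_Control and NB_Stim, with filled circles for slide 1, open squares for slide 2 and a line at the group mean. Cspg4 was high on all 3 NB_Stim arrays, from 12.41 to 13.48, while Pdgfra, Olig1 and Olig2 lay at least 1 above the highest NB_Control array on the NB_Stim array of slide 2 and within 1 of it on the other NB_Stim arrays.

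The cytokine comparison asked whether the other lineage genes accompanied Cspg4. Across all genes 3.41% passed the test in this comparison (1.40% higher and 2.00% lower in NB_Stim, limma's moderated test, Benjamini-Hochberg adjusted p under 0.05), and 0 of the 8 other members did. With the replicate number as a block, which raised the number of genes called from 666 to 1193, the members called were 0 as well. At an unadjusted p under 0.05, 2969 of all genes and 2 of the 8 members were found, Olig1 higher and Cnp lower. The median difference of the 8 members was -0.05, against -0.00076 over all genes.

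The precursor genes divided by array. Pdgfra, the PDGF receptor of precursors, read 7.95, 8.10 and 6.89 in NB_Control and 8.06, 8.10 and 10.10 in NB_Stim. Replicates 1 and 2 of both groups lay together, and replicate 3 was the lowest of NB_Control and the highest of NB_Stim. The fitted difference was 1.10 (95% confidence interval -0.05 to 2.25, adjusted p = 0.354 in limma). Olig2 gave the same pattern, with 8.13, 8.09 and 7.20 in NB_Control and 8.21, 8.35 and 10.94 in NB_Stim, and a difference of 1.36 (95% confidence interval -0.10 to 2.82, limma adjusted p = 0.372). Olig1 read 6.94, 6.90 and 6.29 in NB_Control and 7.05, 7.17 and 8.73 in NB_Stim, and its difference was 0.94 (95% confidence interval 0.06 to 1.81, limma adjusted p = 0.291). For Olig1 and Olig2 the groups did not overlap, although replicates 1 and 2 were separated by a small margin. The Mobp groups did not overlap either, with NB_Stim the lower. The share of all genes separated in this comparison was not counted.

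Within slide 1, where 2 arrays of each group can be compared, the NB_Stim minus NB_Control difference was 0.05 for Pdgfra, 0.19 for Olig1 and 0.17 for Olig2, beside 3.82 for Cspg4. Within slide 2, with 1 array of each group and therefore no test, it was 3.21 for Pdgfra, 2.44 for Olig1 and 3.74 for Olig2, beside 3.07 for Cspg4. The Cspg4 difference was thus present on both slides, and that of the 3 precursor genes exceeded 0.2 only on slide 2. Cspg4 was chosen by its difference on these arrays, so this contrast between the genes is a description. NB_Stim replicate 3 stood 2.03 above the mean of replicates 1 and 2 for Pdgfra, 1.62 above for Olig1 and 2.66 above for Olig2, whereas Cspg4 stood 1.04 below (-1.04). On that array 6.47% of all genes (1266 of 19555) were at least 1 above the mean of the other pair. Slide and replicate 3 coincide, so the scanning of that slide and the culture behind that replicate cannot be told apart.

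**Figure D2:**
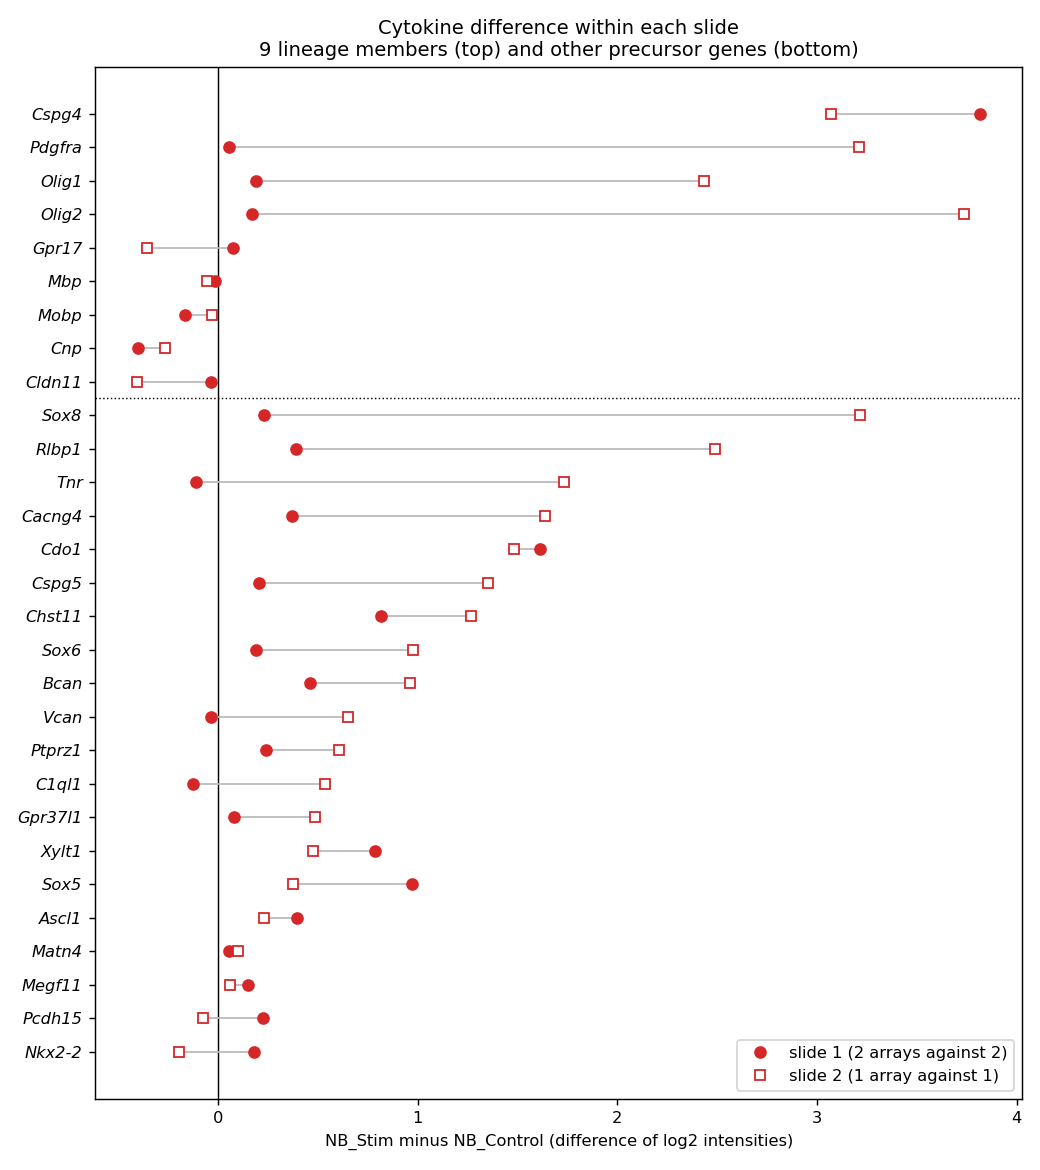
Difference of log2 intensity between NB_Stim and NB_Control (horizontal axis) for the 9 members above the dotted line and 20 other precursor genes below it, with filled circles for slide 1 (2 arrays against 2), open squares for slide 2 (1 against 1) and a grey line joining the pair. Cspg4 lay at 3.82 and 3.07, and Pdgfra, Olig1, Olig2 and Sox8 lay at 0.05 to 0.23 on slide 1 and between 2.44 and 3.74 on slide 2.

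Other genes of the precursor stage were read from a list of 26, of which 20 were tested. In the cytokine comparison 3 rose, 0 fell and 17 were not called, and all 20 differences were above 0, with a median of 0.48 against -0.00076 over all genes. Without NB_Stim replicate 3 the count called was 1, the number above 0 was 19 and the median was 0.29. Cdo1, the cysteine dioxygenase, read 3.88, 3.95 and 4.05 in NB_Control and 5.65, 5.40 and 5.54 in NB_Stim, and its rise of 1.57 (limma adjusted p = 0.00021) was called without replicate 3 too (adjusted p = 0.00077). Chst11, a chondroitin sulphotransferase, rose by 0.97 (limma adjusted p = 0.036) and Bcan, the proteoglycan brevican, by 0.62 (limma adjusted p = 0.048). Without that array neither was called, with limma adjusted p-values of 0.057 for Chst11 and 0.093 for Bcan. The Bcan call was also lost with any other single array left out. Over all such fits the count of list genes called higher ran from 1 to 3, and it was 1 without NB_FACS replicate 1 too.

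Another 4 genes of this list, chosen after their values were seen, followed Pdgfra and Olig2 on NB_Stim replicate 3. The transcription factor Sox8 stood 2.18 above the mean of replicates 1 and 2 there, the retinoid-binding Rlbp1 1.90, the proteoglycan Cspg5 1.10 and the channel subunit Cacng4 1.01. These were 4 of the 20 tested list genes at least 1 higher on that array. The within-slide cytokine difference of Sox8 was 0.23 on slide 1 and 3.22 on slide 2. None of these genes was called in the cytokine comparison, where the limma adjusted p-values were 0.371 for Sox8, 0.450 for Rlbp1, 0.335 for Cspg5 and 0.142 for Cacng4.

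Markers of other cells moved with that replicate as well. The summed level of 15 mural cell markers was 33945, 39433 and 51986 in NB_Control and 36672, 41468 and 21784 in NB_Stim. The summed level of 13 fibroblast markers was 19056, 22470 and 30687 in NB_Control and 16878, 20697 and 10004 in NB_Stim. Replicate 3 had the highest sum of NB_Control and the lowest of NB_Stim for both lists, the reverse of Pdgfra, which is itself a member of the fibroblast list. Sums of linear signal are set by a few bright genes, and the markers within the lists did not move as one. The high mural sum of NB_Control replicate 3 went with 1 gene, the peptidase Anpep, at 10.84, 10.60 and 13.97. On NB_Stim replicate 3 the bright contractile genes Tagln and Acta2 stood 1.01 and 0.97 below the mean of the other pair (-1.01 and -0.97), while Anpep and Notch3 stood 1.78 and 1.08 above it. In all, 3 of the 15 mural markers were at least 1 higher there and 3 at least 1 lower, and of the 13 fibroblast markers 1 was higher, Pdgfra, and 5 were lower. Over all 19555 genes, 1266 were at least 1 higher on that array and 895 at least 1 lower. Astrocyte markers, 10 genes, summed to 3813, 3921 and 3969 in NB_Control and 3304, 3347 and 4408 in NB_Stim. Of 12 neuron markers the sums were 4590, 4396 and 4732 in NB_Control and 4484, 4875 and 5456 in NB_Stim. Some single genes of these lists, chosen after their values were seen, were also higher in NB_Stim on slide 2, while others were lower. The NB_Stim minus NB_Control difference on slide 2 was 2.37 for the glutamate transporter Slc1a3, 1.98 for S100b and 1.59 for Sox9, against -0.05, -0.01 and -0.10 on slide 1. For the astrocyte markers Aldh1l1 and Gja1 it was -1.12 and -0.62 on slide 2, against -1.80 and -0.19 on slide 1. Among the neuron genes it was 2.39 for Map2, 2.06 for Nefm and 1.08 for Syt1 on slide 2, against 0.28, -0.23 and 0.06 on slide 1. For Rbfox3 it was -0.22 on slide 2, against -0.14 on slide 1. Against the mean of the other pair, replicate 3 of NB_Control stood at -1.52 for Map2 and -2.01 for Nefm. In NB_Stim replicate 3 stood at 0.59 and 0.27 for these genes. Syt1 was high on replicate 3 of NB_FACS (1.61), NB_Control (1.60) and NB_Stim (2.62). In the cytokine comparison 0 of 15 mural, 0 of 10 astrocyte and 0 of 12 neuron markers were called, and 2 of 13 fibroblast markers were, Mgp (-2.25, limma adjusted p = 0.038) and Col3a1 (-1.12, limma adjusted p = 0.030), both lower. That count ran from 0 to 4 when single arrays were left out, with 0 without NB_Control replicate 2 or NB_Stim replicate 1 and 1 without NB_Stim replicate 3. Each of the 15 mural markers was well above background on at least 1 NB_Stim array. Of their cytokine differences 4 were above 0 and 11 below. The mural marker Mcam, chosen after its values were seen, read 4.90, 4.83 and 4.23 in NB_Control and 8.39, 5.71 and 6.33 in NB_Stim. Its difference was 2.19 within slide 1 and 2.10 within slide 2, and it was not called. Mural markers called higher numbered 0 to 1 when single arrays were left out, with 1 without NB_Stim replicate 1. The part of other cells in the lineage values was not tested.

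**Figure D3:**
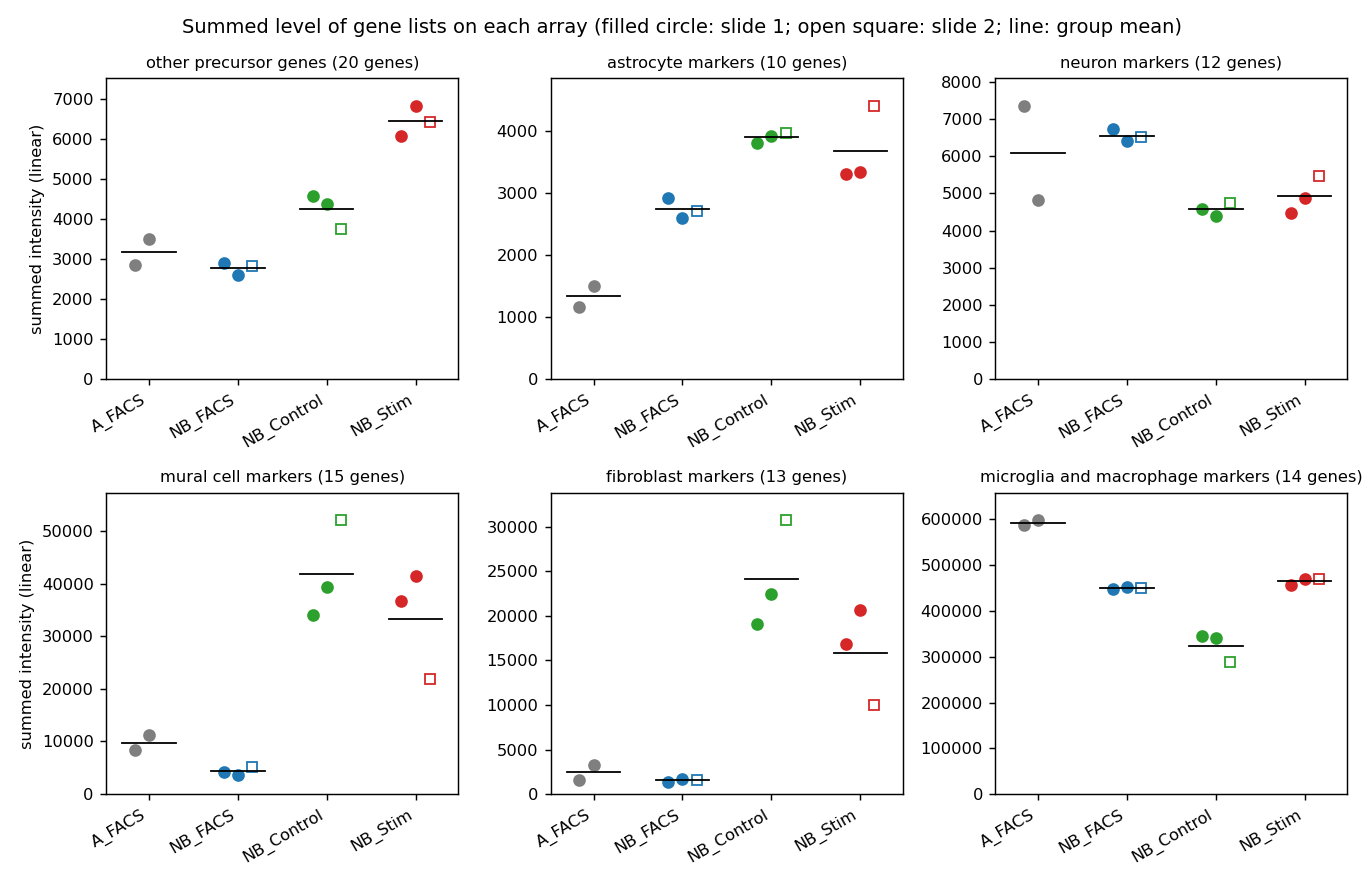
Summed linear intensity (vertical axis, from 0) of 6 gene lists on each array by group, with filled circles for slide 1, open squares for slide 2 and a line at the group mean. On slide 2 the fibroblast sum was the highest of NB_Control and the lowest of NB_Stim, as was the mural sum, whose NB_Control value went with the single gene Anpep, and the astrocyte sum was the highest of NB_Stim at 4408.

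None of the 5 maturing and myelin members was called between NB_Control and NB_Stim. Gpr17, the receptor of the intermediate stage, differed by -0.07 (95% confidence interval -0.43 to 0.29). Mbp, the main structural protein of compact myelin, differed by -0.03 (95% confidence interval -0.46 to 0.40), and its levels were 8.97, 8.71 and 8.43 in NB_Control and 8.84, 8.80 and 8.37 in NB_Stim. Cnp, a cytoplasmic enzyme of myelin, read 8.17, 8.19 and 7.79 in NB_Control and 7.85, 7.70 and 7.53 in NB_Stim. Its difference was -0.36 (95% confidence interval -0.71 to -0.01, limma adjusted p = 0.314), and the groups overlapped. The Cnp probes differed by -0.52, -0.10 and -0.46. Mobp differed by -0.12 (95% confidence interval -0.43 to 0.18) and Cldn11, the tight junction protein of myelin, by -0.16 (95% confidence interval -0.70 to 0.38). The Mobp probe removed by the filter differed by 0.72. The 5 intervals lay between -0.71 and 0.40. Over all genes the lower and upper quartiles of the difference were -0.20 and 0.19.

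Of 35 further premyelinating and myelin genes 27 were tested, and 0 rose and 2 fell with cytokines. Their median difference was 0.09. Evi2a fell from 10.69, 10.82 and 10.61 in NB_Control to 9.40, 9.30 and 9.69 in NB_Stim, a difference of -1.24 (limma adjusted p = 0.0017). Aspa, which cleaves N-acetylaspartate, was well above background on all 3 NB_Control arrays and not well above background on the 3 NB_Stim arrays, so that it was at least 1.81-fold lower (limma adjusted p = 0.0027). That bound sets the NB_Control mean against the lowest signal well above background on each NB_Stim array.

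Culture without cytokines was compared with freshly sorted newborn cells next. Across all genes 29.7% passed the test (15.8% higher and 13.9% lower in NB_Control). Of the 8 members other than Cspg4, 1 rose, 0 fell and 7 were not called, with a median of 0.66 against 0.09 over all genes. Mbp was 7.81, 7.66 and 7.36 in NB_FACS and 8.97, 8.71 and 8.43 in NB_Control, so the groups did not overlap. It rose by 1.09 ± 0.19 (SE, limma adjusted p = 0.0021), a 2.13-fold difference. Cspg4, given without a test, was 1.69 higher in NB_Control.

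Pdgfra was 6.29, 6.20 and 5.99 in NB_FACS, below all 3 NB_Control arrays, and its difference of 1.49 missed the threshold (95% confidence interval 0.34 to 2.64, limma adjusted p = 0.0537). Olig1 was 5.56, 5.73 and 5.69 in NB_FACS, also below all NB_Control arrays, with a difference of 1.05 (limma adjusted p = 0.0722). Olig2 was 6.39, 6.34 and 7.28 in NB_FACS and overlapped NB_Control, with a difference of 1.14 (limma adjusted p = 0.234). The fit shares 1 estimate of spread per gene over all groups, and the SD in NB_Stim was 1.17 for Pdgfra, 0.94 for Olig1 and 1.54 for Olig2. Without that array the same differences had limma adjusted p-values of 0.0039 for Pdgfra, 0.0028 for Olig1 and 0.027 for Olig2, and 4 of the 8 members were called. Within slide 1 the differences were 1.78, 1.27 and 1.74 in that order, and within slide 2 they were 0.91, 0.60 and -0.08.

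Mbp changed on all 3 of its probes in the same direction between these groups. The probe differences were 1.25, 0.52 and 1.50. The groups did not overlap on any of them. The 3 Cnp probes gave -0.03, 0.38 and 0.44, and the kept Mobp probe gave 0.24 against -0.25 for the one removed by the filter.

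**Figure D4:**
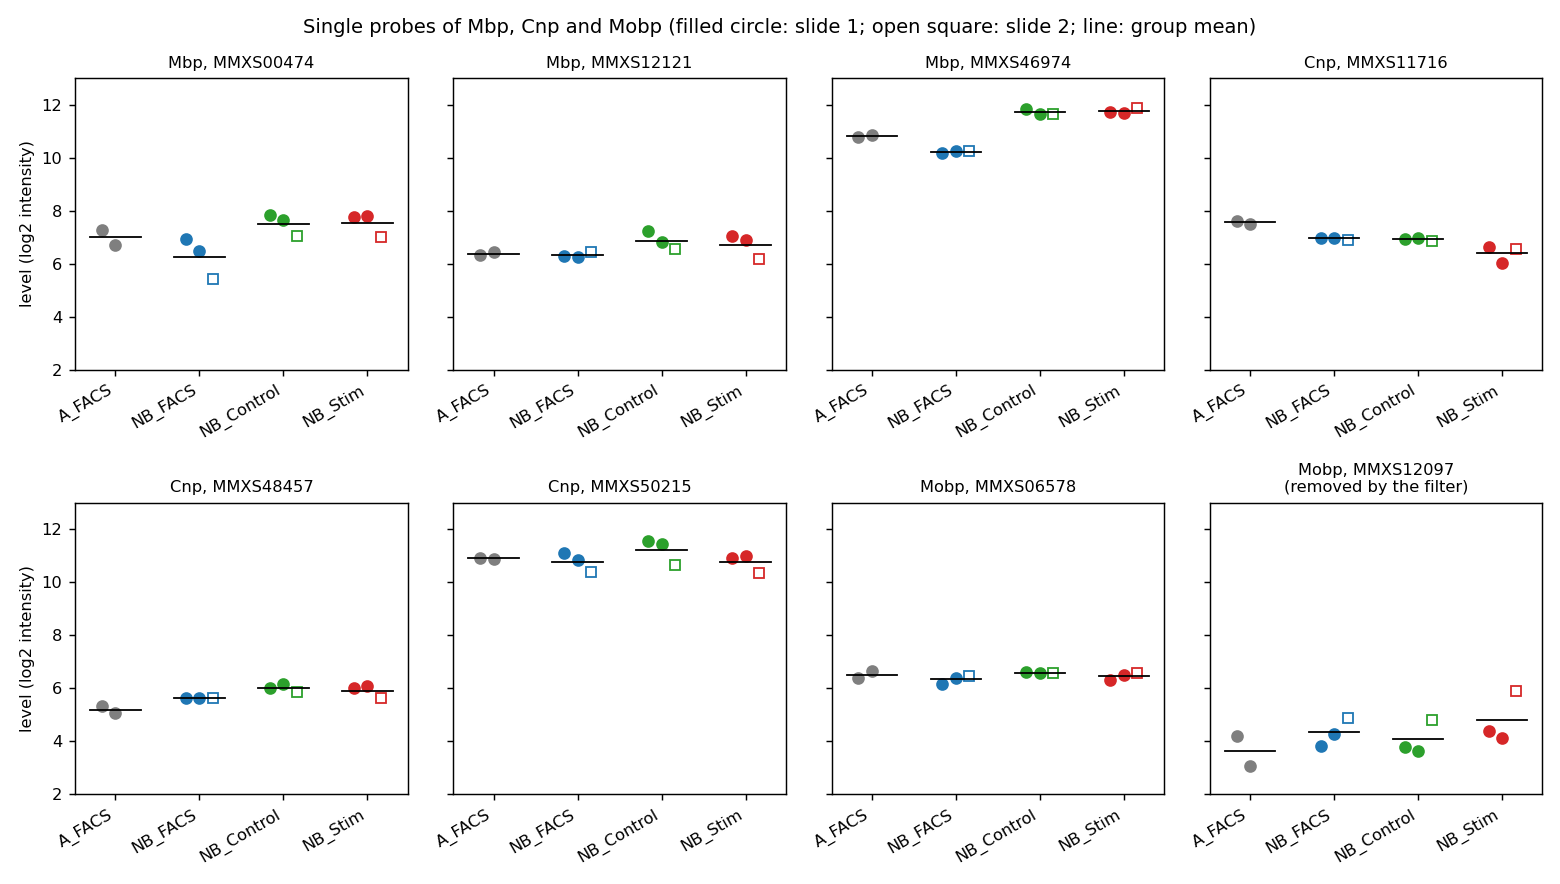
Level (log2 intensity, vertical axis) of each single probe of Mbp, Cnp and Mobp on each array by group, with filled circles for slide 1, open squares for slide 2 and a line at the group mean. All 3 Mbp probes were higher in NB_Control than in NB_FACS, by 0.52 to 1.50, while the Cnp probes differed by -0.03 to 0.44.

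Among the 20 other precursor genes 5 rose and 2 fell in NB_Control against NB_FACS. The largest rises were those of Chst11 (2.59, limma adjusted p = 1.71e-05), Tnr, the matrix glycoprotein tenascin-R (2.20, limma adjusted p = 0.0018), and C1ql1 (1.08, limma adjusted p = 0.0096). Rlbp1 fell by 2.65 (limma adjusted p = 0.0066) and the matrilin Matn4 fell by 1.16 (limma adjusted p = 0.021). Among the 27 further premyelinating and myelin genes 4 rose and 2 fell, with 8 rising without NB_FACS replicate 3. The chaperone Cryab rose by 3.03, the iron carrier Trf by 1.88 and Myrf, a transcription factor of myelin genes, by 1.35, and Anln fell by 2.18 and Evi2a by 1.24. Both lists thus held genes that moved each way. Anln also takes part in cell division, and Trf and Cryab are made by many cell types.

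Markers of other cells differed strongly between these groups. Of 13 fibroblast markers 10 rose and 0 fell, and their summed level went from 1326 to 1746 in NB_FACS to 19056 to 30687 in NB_Control. Of 15 mural markers 4 rose and 3 fell. The contractile genes Tagln (6.66) and Acta2 (3.38) were among those that rose. Rgs5, a gene typical of pericytes, was among those that fell, from 8.65, 8.27 and 8.75 in NB_FACS, and it was well above background on 1 of the 3 NB_Control arrays, so that no fold is given for it. Of 9 endothelial markers 0 rose and 6 fell. The astrocyte list had 3 rises and 0 falls among 10 genes. These shifts run between the same arrays as the Mbp difference, and their part in it was not tested.

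The cytokine-treated cultures were set against the sorted newborn cells as well. Of all genes 31.1% passed (16.0% higher and 15.1% lower in NB_Stim). Of the 8 members 4 rose and 0 fell, and by Tukey's test 1 rose. This comparison shares NB_FACS with the preceding one and NB_Stim with the first. Pdgfra rose by 2.60 (95% confidence interval 1.45 to 3.75, limma adjusted p = 0.0037), Olig1 by 1.99 (limma adjusted p = 0.0036), Olig2 by 2.50 (limma adjusted p = 0.015) and Mbp by 1.06 (limma adjusted p = 0.0024). For each of these 4 called genes all 3 NB_Stim arrays lay above all 3 NB_FACS arrays, which describes the same arrays as the calls. How many of all genes were separated in this way was not counted. Without NB_Stim replicate 3 the rises were 1.92, 1.45 and 1.61 for Pdgfra, Olig1 and Olig2. The Olig2 call was lost without NB_FACS replicate 1 (limma adjusted p = 0.052) or replicate 2 (limma adjusted p = 0.057). Gpr17, Mobp, Cnp and Cldn11 differed by 0.12, 0.12, -0.10 and -0.04 and were not called. Cspg4 stood 5.25 higher, a 38.1-fold difference given as a description.

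Of the 20 other precursor genes 9 rose and 1 fell in NB_Stim against NB_FACS. Chst11 rose by 3.56, Tnr by 2.70 and Sox8 by 1.93 (limma adjusted p = 0.031), and Matn4 fell by 1.09. Without NB_Stim replicate 3 the Sox8 difference was 1.20 and was not called (limma adjusted p = 0.053), while Chst11 and Tnr were called at 3.61 and 2.51. Of the further premyelinating and myelin genes 5 rose and 4 fell, with 8 rising without NB_FACS replicate 3. Cryab (2.69), Trf (2.30) and the axon-glia adhesion protein Nfasc (1.41) led the rises. Of the fibroblast markers 11 rose and 0 fell, and of the mural markers 3 rose and 3 fell.

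**Figure D5:**
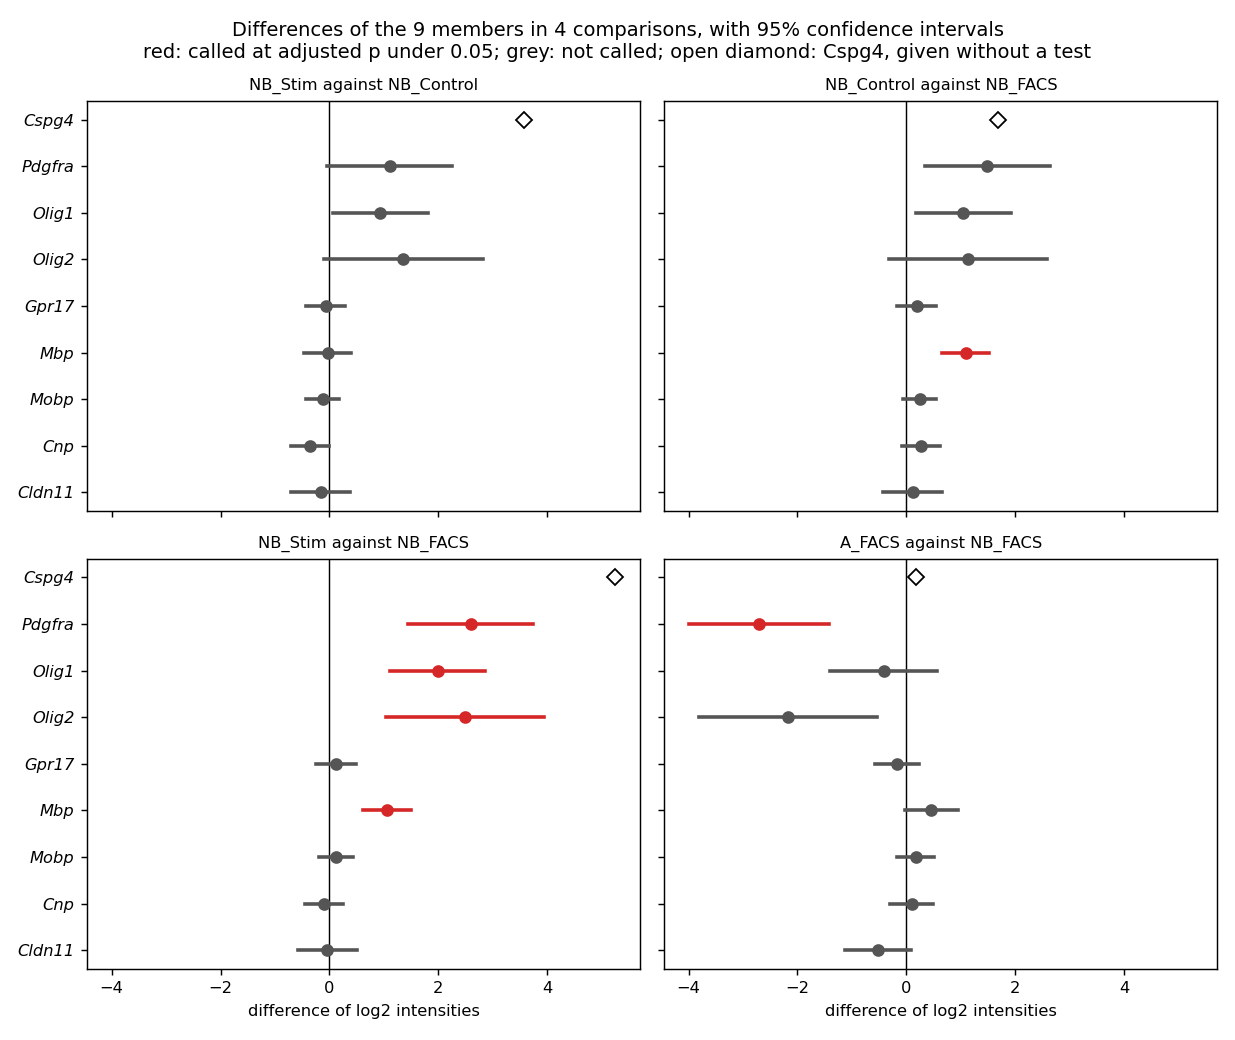
Difference of log2 intensity (horizontal axis) with 95% confidence interval for 8 members in 4 comparisons, red where limma's adjusted p was under 0.05 and grey where it was not, with open diamonds for Cspg4, which is given without a test or interval. Calls were made for Mbp in both comparisons of culture with NB_FACS, for Pdgfra, Olig1 and Olig2 in NB_Stim against NB_FACS, and for Pdgfra, at -2.70, in A_FACS against NB_FACS.

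The last comparison set adult against newborn sorted cells. Of all genes 22.7% passed (9.75% higher and 12.9% lower in A_FACS). Of the 8 members other than Cspg4, 0 rose and 1 fell. Cspg4, again given as a description, differed by 0.18, and the adult arrays read 7.01 and 9.04. Without A_FACS replicate 2 the difference was -0.84, and without replicate 1 it was 1.19. Pdgfra read 3.32 and 3.60 in A_FACS, where replicate 1 was not well above background, against 5.99 to 6.29 in NB_FACS. It fell by 2.70 (95% confidence interval -3.98 to -1.41, limma adjusted p = 0.0085), and was not called without A_FACS replicate 1 (limma adjusted p = 0.065) or with the normexp background correction, under which the difference was -0.92.

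Olig2 was 4.79 and 4.20 in A_FACS and 6.34 to 7.28 in NB_FACS, a difference of -2.17 that missed the threshold (limma adjusted p = 0.0585) and passed it without NB_Stim replicate 3 (limma adjusted p = 0.0033). Olig1 differed by -0.42 and Gpr17 by -0.17. The myelin genes Mbp, Mobp and Cnp differed by 0.46, 0.17 and 0.10, and Cldn11 by -0.52. None of these 6 was called. The adult Mbp arrays, at 8.13 and 8.00, lay above the newborn ones.

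Of the 20 other precursor genes 1 rose and 4 fell in A_FACS against NB_FACS. Chst11 rose by 2.30, and Vcan, the proteoglycan versican (-1.30), and the transcription factors Sox6 (-1.13) and Sox5 (-1.09) were among those that fell. None of the precursor genes was called lower without A_FACS replicate 1 (0), and 2 to 5 were when any other array was left out. Of the further premyelinating and myelin genes 4 rose and 3 fell, with 2 called higher without A_FACS replicate 2 and 1 called lower without replicate 1. Enpp2 (3.43), Pllp (2.49) and Mal (1.55) rose, and Enpp2 was 7.17 and 11.05 on the 2 adult arrays. Like Cspg4 it was higher on A_FACS replicate 2, on which the endothelial sum was 13635 against 6812 on replicate 1 and the mural sum 11171 against 8401. Their part in the adult Cspg4 values was not tested.

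Cspg4 was also set among the other chondroitin sulphate proteoglycans. Of 13 tested core protein genes other than Cspg4, 1 rose and 0 fell with cytokines, and their median difference was -0.04. Over all genes 1.40% were called higher and 2.00% lower. Bcan, Vcan, Cspg5 and Ptprz1 are also in the precursor list and Dcn is in the fibroblast list, so these counts repeat calls given above. The one that rose was Bcan, and with any single array left out, or with slide 1 alone, 0 rose. In NB_Control against NB_FACS 7 rose and 2 fell, beside 15.8% higher and 13.9% lower over all genes. The rises were led by Dcn (3.69) and Bgn (3.47), the small proteoglycans decorin and biglycan. Of the 6 tested PDGF ligands and receptors 1 rose with cytokines, beside 1.40% of all genes. That was Pdgfa, the ligand chain of PDGFRA, at 11.21, 11.29 and 10.95 in NB_Control and 12.45, 12.47 and 12.73 in NB_Stim. It rose by 1.40 (limma adjusted p = 0.0017), and by 1.21 within slide 1 and 1.78 within slide 2. Pdgfrb, the receptor of pericytes, differed by -0.004 (95% confidence interval -1.64 to 1.63). That mean joins opposite differences, 0.87 within slide 1 and -1.76 within slide 2. Pdgfrb read 4.37, 3.91 and 4.45 in NB_Control and 4.83, 5.20 and 2.69 in NB_Stim.

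Over the 11 arrays the genes most like Cspg4 by Pearson correlation, among 13490 genes whose log2 values spanned at least 1, were Lrpap1 (r = 0.99), Tmem114 (r = 0.98), Gng11 (r = 0.97), Mrgprb5 (r = 0.97) and Apbb2 (r = 0.97). None of the other members and no gene of the precursor list was among these 5. In the precursor list the correlations with Cspg4 ran from -0.60 for Matn4 to 0.96 for Xylt1, just under Apbb2. Xylt1, named after its values were seen, was not called with cytokines. Its NB_Stim minus NB_Control difference was 0.78 within slide 1 and 0.47 within slide 2. Lrpap1, a chaperone of lipoprotein receptors, read 11.70 to 12.10 in NB_FACS, 12.63 to 12.71 in NB_Control and 14.10 to 14.30 in NB_Stim. Cspg4 correlated at 0.81 with Olig1, 0.71 with Pdgfra and 0.69 with Olig2, while Pdgfra and Olig2 correlated at 0.97 with each other and at 0.93 and 0.94 with Olig1. The arrays share slides and group differences, and these correlations are given as a description. Mobp, Cnp and Cldn11 correlated with Cspg4 at 0.18, -0.29 and 0.25.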

How the data were processed

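The authors deposited, for 11 single-colour Agilent arrays, scanner files of background-subtracted signal intensity per spot from Feature Extraction (version 11 per the labels, 11.5.1.1 per the file headers) and a series file of intensity values, none of whose 62927 rows differed from the scanner files (0 values, relative tolerance 1e-05). The sample titles gave groups and replicate numbers. Here log2 intensity was averaged over unflagged spots, which dropped 138 probes, and quantile normalised as the study's methods state. RefSeq accessions (GRCm38.p6 gene names) gave 36264 of 60037 probes (60.4%) 1 of 23329 symbols. Kept probes were those well above background on all arrays of some group, and probes of a gene were averaged to 19555 genes, 14654 of them on 1 probe. No spot was saturated, and the number of arrays limits the precision.

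Genes were fitted in limma 3.58.1 (R 4.3.3, with version 1.17.8 of data.table) with 1 mean per group over all arrays (7 residual and 2.69 prior degrees of freedom) and no covariate. Two-sided moderated tests were adjusted by Benjamini-Hochberg over all genes and called at an adjusted p under 0.05, and the fit was tested on simulated data. Same-numbered newborn arrays deviated together from their group means (correlations of 0.27 to 0.489 for NB_Stim and NB_Control, 0.312 to 0.445 for NB_Control and NB_FACS, 0.112 to 0.44 for NB_Stim and NB_FACS). For A_FACS, which had no array on slide 2, and NB_FACS they were 0.168 and -0.0695. Replicate 3 of each newborn group lay on slide 2, so these values cannot tell pairing from a slide difference. A fit with the replicate block was run as an alternative.

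The members and lists were chosen with earlier results of these data known. Named were all members, up to 3 largest rises and falls among called genes of each list and comparison, and the 5 genes most correlated with Cspg4, apart from those said to be chosen later. Alternatives covered scaling, background correction, probe filter, choice of probe, blocks, the samples fitted, Tukey's test and leaving out each array. The use of slide 1 alone was chosen after seeing the data. Sox10, Lhfpl3, Neu4, Traf4, Mag, Mog, Car2, Pdgfc, Kcnj8, Fn1, Aqp4, Fgfr3, Esam, Aif1 and Cd68 were among the list genes that had no matched probe and were not analysed here, and Susd5, Zfp488, Ugt8a, Apod, Tmem125, Acan and Postn were among those removed by the filter. Some list genes are not reported here. Figures were drawn with matplotlib 3.10.9.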

Additional observations from a re-analysis of the deposited data

How the results depend on the processing

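Of the member results, the differences of Cspg4 between the newborn groups kept their direction under every alternative run, and its cytokine difference ran from 3.38 to 3.91. Cspg4 was chosen by that rise on these same arrays, so its stability is a description and no support for the rise. The cytokine differences of Pdgfra, Olig1 and Olig2 kept their direction and stayed uncalled, from 0.05, 0.19 and 0.17 with slide 1 alone up to 1.63, 1.31 and 1.95. With the replicate block the genes called between NB_Stim and NB_Control were 1193 and with the slide as a block 1476, against 666, and the replicate block changed no call of a member. It raised the other precursor genes called higher in A_FACS from 1 to 3. Those called higher with cytokines, 3 in all, were 5 with the slide block and 1 with 75th percentile scaling. Over all genes, the number called between NB_Stim and NB_Control was 1009 with normexp and 183 by Tukey's adjusted test. It was 118 with replicates 1 and 2 of the cultured groups averaged. With slide 1 alone (chosen after seeing the data) it was 1032, and it ran from 304 to 703 when each array was left out. By Tukey's test 3547 genes were called between NB_Control and NB_FACS, 3620 between NB_Stim and NB_FACS and 2014 between A_FACS and NB_FACS. For A_FACS against NB_FACS the count was 2923 with only those groups fitted and 2456 to 5124 when each array was left out. Leaving out single arrays gave 4516 to 6454 genes for NB_Control against NB_FACS and 4638 to 6581 for NB_Stim against NB_FACS.

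Members called higher in NB_Control against NB_FACS numbered 1, and 3 with only those groups fitted, 4 with slide 1 alone and 1 to 4 when each array was left out. For NB_Stim against NB_FACS they numbered 4, and 1 by Tukey's test, the cause not being tested. For A_FACS against NB_FACS 0 were called higher and 1 with the brightest probe of each gene (Mbp, 0.61). Members called lower there numbered 1, but 0 with normexp, 0 by Tukey's test, 2 with only those groups fitted, 2 with slide 1 alone and 0 to 2 when each array was left out.

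Some uncalled differences near 0 changed sign. In the cytokine comparison Gpr17 was 0.06 with 75th percentile scaling, 0.076 with slide 1 alone and -0.187 to 0.0867 leaving out arrays, and Mbp was 0.0506 with its brightest probe and -0.17 to 0.12 leaving out arrays. Mobp was 0.30 without the filter on dim probes. Cldn11 was 0.0306 with 75th percentile scaling and -0.32 to 0.11 leaving out arrays. In NB_Control against NB_FACS Mobp was -0.0048 without the filter and Cldn11 was -0.0167 with 75th percentile scaling and -0.0223 to 0.264 leaving out arrays. In NB_Stim against NB_FACS Cldn11 was 0.0139 with 75th percentile scaling, 0.0025 with normexp, 0.31 with slide 1 alone and -0.20 to 0.23 leaving out arrays. In A_FACS against NB_FACS Mobp was -0.26 without the filter and Cspg4 was -0.84 to 1.19 leaving out arrays. The causes were not tested. The median of all genes was 0.11 in NB_Stim against NB_FACS and 0.09 with 75th percentile scaling.

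Signal over background limits the adult Pdgfra value, since 1 of its 2 arrays was not well above background.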
